A study of Mus musculus with 54 samples.

Results

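Primary mouse lung fibroblasts were stimulated with transforming growth factor β1 (TGF-β1) in medium that lacked branched-chain amino acids but had their keto acids returned, and were compared with fibroblasts given phosphate-buffered saline (PBS) in the same medium. The comparison rests on 6 RNA-sequencing libraries, 3 with TGF-β1 and 3 with PBS, out of 24 fibroblast libraries and 54 libraries in the whole series; the members are all libraries of these 2 groups, and every gene in the fibroblast table was considered. All 6 cultures were wild type and carried the same batch label, 1. Cells were kept in DMEM/F-12 medium with 10% serum at 5% O2 and 5% CO2, spent 24 h in the test medium, and then received TGF-β1 at 20 ng/mL or PBS for 48 h. The controls therefore also lacked branched-chain amino acids and also received the keto acids. The other fibroblast groups, 3 libraries each, had complete medium, BCAA-free medium, or BCAA-free medium with the amino acids themselves returned, each with PBS or TGF-β1. The dose and composition of the keto acids, and the strain, sex and age of the mice that gave the fibroblasts, are not given in the sources used here.

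Leucine, isoleucine and valine, the branched-chain amino acids (BCAA), first lose their amino group to the transaminases BCAT1 and BCAT2, which leaves the branched-chain keto acids (BCKA). That step is reversible, so a cell given BCKA can rebuild BCAA, whereas the next step, oxidation by the mitochondrial BCKA dehydrogenase complex, is not; the kinase BCKDK switches the complex off and the phosphatase PPM1K switches it on. TGF-β1 binds a receptor pair that phosphorylates SMAD2 and SMAD3, and in lung fibroblasts it drives the myofibroblast programme of contractile actin filaments and secreted collagen matrix. A cell short of an amino acid activates the kinase GCN2 and the transcription factor ATF4, which switches on amino acid synthesis, uptake and tRNA charging.

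Levels are given as TPM, a measure of transcript abundance scaled for transcript length and to the same total in every library, so levels of different genes can be set side by side. Changes are differences of log2(TPM + 1), TGF-β1 minus PBS unless stated, followed by ± their standard error (SE). A gene was said to rise or fall at an adjusted p under 0.05 in limma. Nothing in the labels says that the 3 libraries of a group came from separate mice or isolations, so the p-values measure the spread between these libraries, which may be technical. No read counts were used here, so depth is unknown. With BCKA returned, 15609 to 16221 genes were listed above 0 per library, and the lowest correlation between libraries of a group was 0.9929. The 50 most abundant genes made up 16.4 to 16.6% of TPM under PBS and 21 to 22.2% under TGF-β1. The table lists no mitochondrial transcripts. The 10 pan-fibroblast markers, among them Pdgfra, Vim and Col1a2, summed to 21397 to 22646.5 TPM under PBS and 36219 to 41804 TPM under TGF-β1. Most of either sum came from the collagen genes Col1a1, Col1a2 and Col3a1. Their means were 3331, 5509 and 8476.5 TPM under PBS and 16037, 11929 and 5019.5 TPM under TGF-β1. The higher sum thus reflects the type I collagen genes and does not measure fibroblast content. Dcn and Lum of the same list fell. Markers of epithelium, endothelium, myeloid cells and lymphocytes were low. Those of pericytes and smooth muscle and of mesothelium, given further below, were higher. The 11 epithelial markers summed to 8.4 to 9.55 TPM under PBS and 3.37 to 3.89 TPM under TGF-β1, the 10 endothelial markers to 13.4 to 17.1 TPM and 13.6 to 17.2 TPM, the 12 myeloid markers to 5.82 to 9.21 TPM and 9.31 to 11.3 TPM, and the 9 lymphocyte markers in the table to 0.245 to 0.551 TPM and 0.0748 to 0.233 TPM. Epcam, Sftpb, Scgb1a1, Adgre1, C1qb, Fcgr1, Tyrobp, Cd3e, Cd3d, Cd8a, Ms4a1 and Gzma were listed at 0 in all 6 libraries. Outside the comparison, replicate 1 of the group with TGF-β1 in BCAA-free medium stood apart from its group, with a lowest correlation of 0.9531; it is called the outlying library here.

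TGF-β1 changed 5996 of 13084 genes tested with BCKA returned (45.8%). Of these, 1504 rose (11.5% of genes tested) and 4492 fell (34.3%), and 395 rises and 974 falls were at least 2-fold. The median change of all genes tested was -0.20, and TPM is a share of each library. Centring each library on its median ratio moved that median by 0.197 and gave 2578 rises and 2624 falls, and 4128 genes passed in the same direction on both scales. Without the outlying library, which enters this contrast only through the common estimate of spread, 7428 genes passed, all 5996 among them.

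The largest rise was that of Igfbp2, a secreted binding protein for insulin-like growth factors. It stood at 4.08, 3.25 and 4.85 TPM in the PBS libraries and 348, 449.6 and 388 TPM in the TGF-β1 libraries, a change of 6.29 ± 0.25 (adjusted p = 4.82e-15). Acta1, the actin of skeletal muscle, was at 0.163, 0.21 and 0.238 TPM and reached 52.4, 60.4 and 62.5 TPM. Acta1 was therefore below 1 TPM in all 3 PBS libraries, and both genes were well expressed in all 3 libraries with TGF-β1. Postn encodes periostin, a matrix protein of remodelling tissue. It went from 27.3, 26.8 and 21.1 TPM to 1229, 1047 and 1049 TPM (5.41 ± 0.16, adjusted p = 4.13e-17). All 3 TGF-β1 libraries of each gene lay far above the PBS libraries. The rankings of largest rises and falls took only genes whose groups did not overlap. Further leading rises were those of Vgf (5.54), a secreted neuropeptide precursor, Fndc1 (4.34), Eln, which encodes elastin (4.24), Col8a2 (4.19), Ncam1, a cell adhesion molecule (4.08), and Itga11, the α11 subunit of a collagen-binding integrin (3.99).

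The largest falls included genes of complement, chemokines and acute phase proteins. C7, a component of the complement membrane attack complex, dropped from 156, 134 and 139 TPM to 3.33, 1.65 and 2.17 TPM (-5.44 ± 0.23, adjusted p = 1.92e-14). The chemokine gene Cxcl13 dropped from 74.1, 75 and 76 TPM to 1.3, 0.627 and 0.699 TPM. In each gene the TGF-β1 libraries kept only a small residue. Hp, which encodes the haemoglobin-binding plasma protein haptoglobin, dropped from 415, 379.7 and 502 TPM to 16.1, 11.4 and 14.1 TPM (-4.87 ± 0.13). Falls of similar size were measured for Cxcl5, a neutrophil-attracting chemokine (-5.25), Lrg1 (-5.07), the tight-junction gene Cldn11 (-4.77), Igfbp5 (-4.54), the carboxylesterase gene Ces1g (-4.44) and Ggt5 (-4.44). Reads of Ces1g are uncertain because the Ces1 genes are close copies of each other. Under TGF-β1 several of these genes were near or below 1 TPM, where the added 1 understates the fold.

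**Figure D1:**
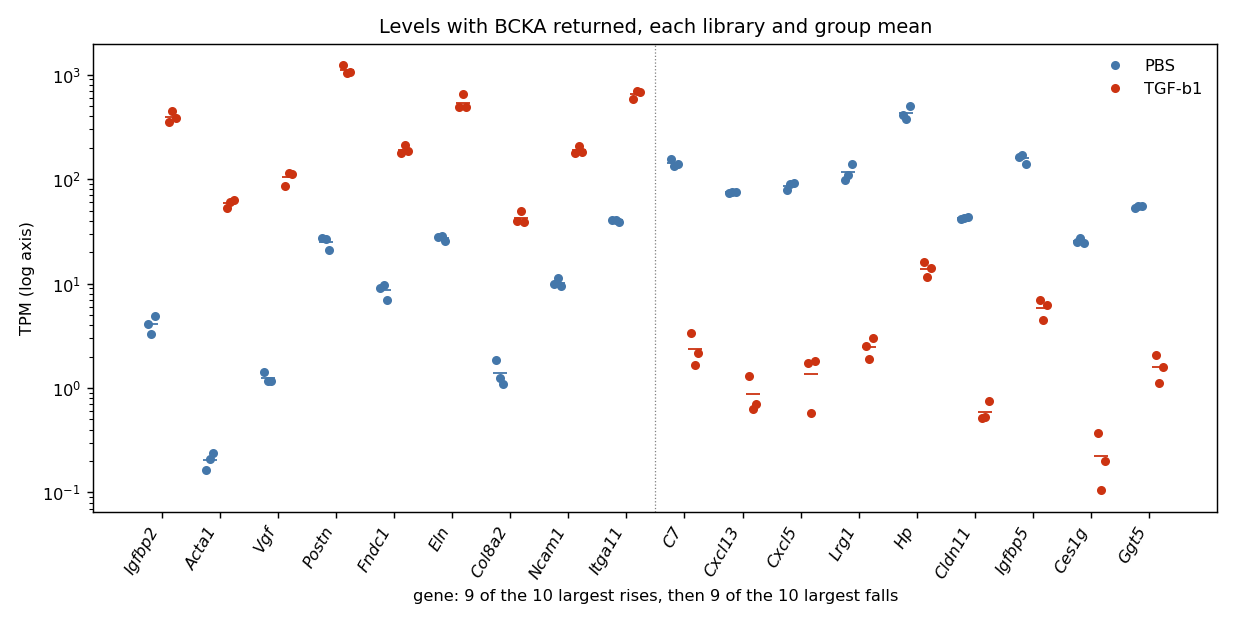
TPM (log axis) of 9 of the 10 genes with the largest rise and 9 of the 10 with the largest fall, with BCKA returned. Points are libraries (blue PBS, red TGF-β1) and short lines are group means of 3 libraries. Igfbp2 moved from a mean of 4.06 to 395 TPM and C7 from 143 to 2.38 TPM. Only genes without overlap between the groups could enter this ranking.

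Within the TGF-β pathway the ligands and most feedback inhibitors rose. Counts of list members are to be read against the 11.5% of all genes tested that rose and the 34.3% that fell. All 3 ligand genes rose: Tgfb1 went from 31, 33.8 and 37.4 TPM to 87.1, 90.8 and 93.4 TPM (1.39 ± 0.16), and Tgfb2 and Tgfb3 changed by 0.61 and 0.40. Of 6 receptor and co-receptor genes 0 rose and 2 fell, namely Tgfbr2, the ligand-binding receptor kinase (-0.50), and Tgfbr3, the co-receptor betaglycan (-1.13). Tgfbr3 was at 797, 792 and 703 TPM under PBS and at 329, 338 and 380.3 TPM under TGF-β1. The signalling receptor Tgfbr1 had -0.11 (adjusted p = 0.476 in limma). The share of receptors that fell was close to that of all genes. For a list of 6 genes, 0 rises is also near the 11.5% of all genes. Among 5 tested genes grouped under TGF-β latency (the Ltbp family and Lrrc32), 3 rose. They were Ltbp2 (483, 507 and 457 TPM, then 4912, 5994 and 5551 TPM), Ltbp1 (0.48) and Lrrc32, which encodes the latent TGF-β anchor GARP (2.28). Whether the product of each gene holds latent TGF-β was not tested. Ltbp2 is the member with the largest change of these 14 genes, at 3.50 ± 0.11.

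Of 6 effector SMAD genes 3 fell, Smad3 (-0.43), Smad5 (-0.58) and Smad9 (-0.65), and after centring 1 of the 14 genes for SMADs and feedback proteins fell. Of 8 inhibitor genes 5 rose and none fell. Pmepa1, which sequesters SMADs at the membrane, went from 87, 96.3 and 88.1 TPM to 288, 274 and 265 TPM (1.60 ± 0.09). The inhibitory SMAD gene Smad7 rose by 1.11 and Skil, a SMAD co-repressor, by 0.73. The median change of the 14 genes was -0.13 as deposited and 0.07 after centring, so its sign depends on the scale.

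Of 30 TGF-β target genes 18 rose and 7 fell, with a median of 0.74 against -0.20 for all genes tested. Ccn2, which encodes connective tissue growth factor, went from 122, 155 and 128 TPM to 1603, 1481 and 1548 TPM (3.51 ± 0.10, adjusted p = 1.14e-17). Cthrc1, a secreted protein of injury-associated fibroblasts, went from 5.82, 7.9 and 6.76 TPM to 94.3, 87.1 and 83.6 TPM (3.52 ± 0.15). The cytokine genes Lif (3.38) and Il11 (2.80), the matricellular gene Ccn4 (3.24) and the NADPH oxidase gene Nox4 (1.02) also rose. The 7 that fell included the transcriptional inhibitor genes Id2 (-2.20) and Id3 (-0.87), the cadherin gene Cdh11 (-1.22), the fibroblast protease gene Fap (-1.09) and Tgfbi (-1.34).

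Contractile genes rose as a list. Of 32 tested genes for actins, actin-binding proteins, myosins and their regulators, 26 rose and 0 fell, with a median of 0.90; 27 rose and 2 fell without the outlying library. Acta2, the smooth muscle actin by which myofibroblasts are recognised, was at 675, 631 and 728 TPM under PBS and 2316, 2438 and 2119.6 TPM under TGF-β1, a change of 1.76 ± 0.16 (adjusted p = 7.65e-09). Every TGF-β1 library was far above every PBS library. The calponin gene Cnn1, whose product binds actin and restrains myosin in smooth muscle, went from 22.8, 17.3 and 20 TPM to 159, 165 and 145 TPM (2.91 ± 0.20). Actg2, the enteric smooth muscle actin, changed by 2.50, Tagln (transgelin) by 2.32, Myh11 (smooth muscle myosin heavy chain) by 2.03 and Actn1 (α-actinin) by 1.63. All 5 actin genes tested rose, and their near-identical coding sequences make the split of reads between them uncertain. The 6 that did not pass were Vcl (0.04), Zyx (-0.02), Myh10 (0.30), Mylk (0.05), Srf (-0.29) and Mrtfb (-0.41). SRF and the MRTF proteins are the transcription factors that bind the CArG box, and of their genes only Mrtfa rose (0.67).

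Promoter windows of 250 bases before to 50 after the transcription start were searched on both strands for the CArG box, a run of CC, 6 bases of A or T, and GG. RefSeq promoters were found for 22 of the 26 risen contractile genes, and 5 of them (22.7%) held the box, against 1.81% of 27025 genes in the promoter table and 1.54% of the 10412 tested genes with a promoter. A match describes the letters and is not a bound site. The list was drawn up as contractile and actin-MRTF-SRF genes, that is, around the factors that bind this box. Its share of boxes therefore says nothing about the response to TGF-β1. The share among list members that did not rise was not computed. For the 4 of them with the largest rise the 250 bases before the start are printed, 5′ to 3′ on the gene's strand with the box in capitals, because these genes rose together; the other was Cnn2. Positions are on GRCm38.p6, the build of the RefSeq table, which is not the build of the expression table. The Acta1 sequence is chr8:123894776-123895025 (minus strand), that of Myl9 chr2:156775214-156775463 (plus strand), that of Actg1 chr11:120348496-120348745 (minus strand) and that of Fhl2 chr1:43196762-43197011 (minus strand, 1 of 2 promoters listed for the gene).
Acta1: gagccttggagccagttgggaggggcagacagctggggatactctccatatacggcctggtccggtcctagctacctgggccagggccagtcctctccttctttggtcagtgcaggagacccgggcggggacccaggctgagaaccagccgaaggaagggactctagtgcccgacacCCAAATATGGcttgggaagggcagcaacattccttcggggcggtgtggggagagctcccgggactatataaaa
Myl9: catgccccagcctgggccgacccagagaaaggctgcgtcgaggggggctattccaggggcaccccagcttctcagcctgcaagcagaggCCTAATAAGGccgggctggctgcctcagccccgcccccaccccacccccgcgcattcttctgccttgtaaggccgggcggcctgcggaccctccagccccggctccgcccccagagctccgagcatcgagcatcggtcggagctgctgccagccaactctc
Actg1: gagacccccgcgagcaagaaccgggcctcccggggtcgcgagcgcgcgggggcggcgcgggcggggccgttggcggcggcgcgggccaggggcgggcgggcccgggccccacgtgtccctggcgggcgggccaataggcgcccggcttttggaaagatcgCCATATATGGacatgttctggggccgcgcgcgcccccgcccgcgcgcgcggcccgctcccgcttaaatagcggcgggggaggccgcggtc
Fhl2: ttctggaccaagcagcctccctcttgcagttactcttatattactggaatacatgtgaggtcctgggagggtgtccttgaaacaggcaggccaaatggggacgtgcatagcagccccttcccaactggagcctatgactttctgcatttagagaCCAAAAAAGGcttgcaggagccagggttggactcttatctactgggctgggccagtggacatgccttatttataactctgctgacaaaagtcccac
Of these genes, Myl9, a regulatory light chain of smooth muscle myosin, went from 157, 156 and 184 TPM to 327, 323 and 292 TPM (0.92 ± 0.11). The cytoplasmic γ-actin gene Actg1 changed by 0.82 ± 0.10 and Fhl2, a LIM-domain adaptor, by 0.75 ± 0.11. The box begins 73 bases before the start in Acta1, 90 in Actg1, 96 in Fhl2 and 161 in Myl9. It is present both in Acta1, which changed the most of the list (5.62), and in genes with changes under 1.

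Collagens moved in both directions. Of 27 tested, 11 rose and 10 fell, with a median of 0.18, and the share that fell was close to that of all genes tested (34.3%); after centring 12 rose and 7 fell, with a median of 0.38. Col1a1, the main chain of type I collagen, rose from 3145, 3291 and 3557 TPM to 13663, 18407 and 16042 TPM (2.26 ± 0.37, adjusted p = 3.27e-05), which placed it above any other collagen in the 3 TGF-β1 libraries. Col3a1, the type III chain, was the most abundant collagen under PBS and fell, from 8633, 8110.0 and 8686 TPM to 5254, 5016 and 4788 TPM (-0.76 ± 0.29, adjusted p = 0.0403). Its groups did not overlap. Leaving out any single library of the comparison gave changes of -0.72 to -0.79 with an adjusted p of 0.0683 to 0.0969 in limma, centring gave -0.56 (adjusted p = 0.192), and leaving out the outlying library gave -0.76 (adjusted p = 9.51e-07). Of the 9 fibrillar collagens 6 rose, with Col5a2 (2.27), Col11a1 (2.19) and Col1a2 (1.11) beside Col1a1. Col7a1, which forms anchoring fibrils (2.84), Col12a1 (2.13) and Col8a2 rose as well. Col27a1 (-3.23), Col14a1 (-2.28) and 4 of the 5 tested chains of type VI collagen fell, among them Col6a5 (-1.76) and Col6a1 (-0.73).

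Of the other 37 matrix genes 16 rose and 15 fell, with a median of 0.02; after centring 16 rose and 11 fell, with a median of 0.22. Of 10 elastic fibre genes 6 rose and 4 fell, and of 12 proteoglycan and hyaluronan genes 3 rose and 7 fell. Eln went from 27.6, 28.5 and 25.7 TPM to 485, 648 and 485 TPM, and the fibre genes Mfap4 (2.31), Fbln5 (1.85) and Fbn1 (1.13) rose with it, whereas Fbln1 (-2.32) and Fbn2 (-1.58) fell. Ogn, which encodes the small proteoglycan osteoglycin, dropped from 748, 734 and 757 TPM to 41.5, 32.1 and 31.8 TPM (-4.38 ± 0.23). Its relatives Dcn (decorin, -3.43) and Lum (lumican, -1.76) dropped too, as did the lubricin gene Prg4 (-3.78), while biglycan (Bgn) rose by 0.89. Fn1, which encodes fibronectin, had 12006, 12733 and 8907 TPM under PBS and 10604, 12093 and 11127 TPM under TGF-β1, overlapping groups and a change of 0.02 ± 0.27 (adjusted p = 0.954). Of the hyaluronan genes, the synthase Has2 rose (3.32) and so did Cemip, whose product starts hyaluronan breakdown (0.86).

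Of 29 genes that process and crosslink collagen 14 rose and 4 fell, with a median of 0.30; after centring 16 rose and 2 fell, with a median of 0.50. The rises included 6 of 12 hydroxylase genes and 5 of 6 crosslinking genes. Among the lysyl oxidase genes, whose products crosslink collagen and elastin, Lox went from 3010.2, 2936 and 2689.8 TPM to 9743, 9356 and 8778 TPM (1.69 ± 0.18), Loxl3 rose by 2.70, Loxl2 by 1.24 and Loxl4 by 1.23. All 5 oxidase genes of the list passed. The prolyl hydroxylase subunits P4ha3 (2.32), P4ha2 (1.36) and P4ha1 (0.93) and the collagen chaperone gene Serpinh1 (0.74) rose. The fall was largest in Adamts3 (-3.27), a procollagen N-propeptidase, and Adamts2 (-1.01), which has the same activity, fell too. After centring, 16 rose and 2 fell.

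Matrix proteases and their inhibitors numbered 13 rises and 14 falls in 30, and 15 and 11 after centring. Mmp3 (stromelysin) dropped from 3244, 2947 and 3527 TPM to 759, 652 and 784 TPM (-2.15 ± 0.10), and Mmp15 (-3.01), Adamts15 (-2.37) and the plasminogen activator genes Plat (-1.11) and Plau (-1.15) fell. Inhibitor genes went both ways: Timp3 (2.38) and Timp1 (0.80) rose and Timp2 (-0.97) fell. Timp1 was at 608, 661 and 808 TPM and then at 1224, 1192 and 1186 TPM. Of 17 integrin genes 13 rose and 2 fell, with a median of 0.49. Itga11 went from 40.9, 40.6 and 39.1 TPM to 590.4, 693 and 682 TPM and the fibronectin receptor subunit Itga5 from 163, 177 and 166 TPM to 949, 1075 and 1047 TPM (2.59 ± 0.09). Itga8, another partner of the β1 subunit, rose by 0.95, and Itga1 (-0.70) and Itgb8 (-0.85) were the 2 that fell.

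Many genes that handle the returned keto acids fell. Of 27 genes of BCAA breakdown 1 rose and 16 fell, with a median of -0.58; after centring 1 rose and 13 fell, with a median of -0.38. The 1 that rose was Bcat1, the cytosolic transaminase: 17.2, 18.8 and 18.2 TPM under PBS and 48.4, 52.1 and 51.3 TPM under TGF-β1 (1.44 ± 0.13, adjusted p = 6.12e-09). Its mitochondrial counterpart Bcat2 had 39.9, 41.7 and 46.9 TPM and 32.2, 34.5 and 31.3 TPM (-0.38 ± 0.13, adjusted p = 0.0258). Transaminase genes thus moved in opposite directions, and the Bcat2 call was lost after centring (adjusted p = 0.343) and without PBS replicate 3 (0.106), TGF-β1 replicate 1 (0.0623) or TGF-β1 replicate 3 (0.0795). In the BCKA dehydrogenase complex, Bckdha went from 65, 68.3 and 71.7 TPM to 31.1, 37.3 and 35.9 TPM (-0.96 ± 0.11), Bckdhb changed by -0.88 and Dbt, the acyltransferase core, by -0.58. Dld, the subunit that other dehydrogenases share, had -0.13 (adjusted p = 0.484). The kinase gene Bckdk had 62.7, 66.6 and 76.4 TPM and 63.3, 69.2 and 68.1 TPM, overlapping groups and a change of -0.03 ± 0.11 (adjusted p = 0.835), and the phosphatase gene Ppm1k changed by -0.26 ± 0.12 (adjusted p = 0.084). Ppm1k did pass as a fall with array weights (adjusted p = 0.00464 in limma) and without PBS replicate 3 (0.0174). Of 17 enzymes further down the pathway 11 fell and 0 rose, led by Aldh6a1 (-1.36) of valine breakdown and Mccc1 (-1.21) and Ivd (-1.02) of leucine breakdown.

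Genes of the amino acid shortage response rose moderately. Of 38 genes of the ATF4 programme 24 rose and 4 fell, with a median of 0.60. Most of its synthesis enzymes were among them, 10 of 12. Asns, which makes asparagine, went from 38.3, 39.4 and 44.4 TPM to 108, 119 and 105 TPM (1.42 ± 0.15, adjusted p = 1.05e-07). Mthfd2, of mitochondrial folate metabolism, changed by 1.92, and Psat1, of serine synthesis, by 1.25. Of 12 regulator genes only 4 rose. Trib3, a pseudokinase that feeds back on ATF4, went from 3.21, 5.3 and 4.85 TPM to 16.1, 20.4 and 15.3 TPM (1.75 ± 0.23), and Nupr1 (1.47) and Ddit4 (0.42) rose. Atf4 itself went from 115, 107 and 129 TPM to 169.7, 165 and 160.5 TPM (0.49 ± 0.18, adjusted p = 0.0328), a call that leaving out any 1 of 5 of the 6 libraries ended (adjusted p 0.06 to 0.111; PBS replicate 3 was the exception). Ddit3, which encodes the stress factor CHOP, had 16.6, 16.7 and 18.4 TPM and 17.3, 19.4 and 13.4 TPM, overlapping groups and a change of -0.06 ± 0.22 (adjusted p = 0.857). Of 20 cytosolic aminoacyl-tRNA synthetase genes 8 rose and 0 fell (12 and 0 after centring), led by Cars (1.04), Gars (0.67) and Aars (0.65). The leucine and valine enzymes Lars (0.06) and Vars (-0.24) did not pass, and the isoleucine enzyme Iars did (0.43).

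Sterol and fatty acid synthesis rose as a list: 25 of 33 genes rose and 0 fell, with a median of 0.77. Scd2, a fatty acid desaturase, went from 628, 597 and 625 TPM to 1548, 1548 and 1713 TPM (1.37 ± 0.10), Mvd of the mevalonate pathway changed by 1.38, Fdps, which makes farnesyl diphosphate, by 1.34 and Cyp51, a demethylase of sterol synthesis, by 1.31. All 3 TGF-β1 libraries were above all 3 PBS libraries for Scd2. Fasn (fatty acid synthase) had 0.23 and did not pass. Of 21 glycolysis genes 15 rose and 1 fell, with a median of 0.58. Aldoc, an aldolase isoform, went from 17, 15.7 and 20.6 TPM to 71.1, 65.1 and 70.3 TPM (1.90 ± 0.14). The lactate exporter Slc16a3 (1.36), Pgam1 (1.07) and the hexokinase gene Hk2 (1.01) rose, and Pfkfb3, whose product stimulates phosphofructokinase, was the 1 that fell (-0.59).

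Cell cycle genes fell. Of 30 mitosis genes 26 fell and 1 rose (Anln, 0.46), with a median of -0.79; 20 fell after centring, with a median of -0.59. Mki67, which marks cycling cells, went from 26.4, 26.6 and 16.9 TPM to 8.43, 8.57 and 9.63 TPM (-1.27 ± 0.18), and the mitotic kinesin gene Kif20a (-1.46) and the spindle gene Aspm (-1.39) fell further. Of 23 replication genes 13 fell and 2 rose, with a median of -0.47 (9 and 2 after centring, with a median of -0.27), and the falls included the helicase genes Mcm3 (-1.11) and Mcm7 (-1.03). Of 23 genes of the p53 and senescence list 12 rose and 5 fell. All 12 rises were among its 19 p53 genes, of which 3 fell. Of its 4 senescence genes 0 rose and 2 fell. Cdkn1a, which encodes the cell cycle inhibitor p21, went from 247, 237 and 252 TPM to 616, 685 and 623 TPM (1.38 ± 0.08). In bulk RNA, fewer cells of a kind and less RNA per cell cannot be told apart, here or in any other list.

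Inflammatory genes mostly fell, and a few cytokine genes did not. In the complement and acute phase list 13 of 15 genes fell and 0 rose, with a median of -2.84, the lowest of the 23 lists. Lcn2 (lipocalin 2, an iron-withholding defence protein) dropped from 321, 336 and 373 TPM to 17.8, 12.4 and 15.8 TPM (-4.41 ± 0.13), and C3 (-3.11), C4b (-2.84) and Saa3 (-3.70) fell. The 2 that did not pass were the complement regulators Cd55 (-0.05) and Cd59a (0.30). Of 12 chemokine genes 9 fell, with Cxcl1 (-3.01) and Ccl11 (-2.57) beside those named, and 2 rose, Cxcl14 (2.16) and Cx3cl1 (1.00). Among cytokines Csf1 (1.50), Tslp (1.34) and Il6 (1.11) rose and Il33 (-2.72) fell. Of 36 interferon response genes 20 fell and 2 rose, with a median of -0.52; 13 fell after centring, with a median of -0.33. Irgm2, an immunity GTPase, changed by -1.22, and Ifi44 was 1 of the 2 that rose (1.17).

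In the axis of insulin-like growth factors 1 of 12 genes rose and 7 fell, with a median of -0.55 (-0.35 after centring). Igfbp2 was the 1 that rose, while Igfbp5 went from 164, 169 and 140.4 TPM to 6.94, 4.44 and 6.29 TPM and Igfbp4, the most abundant binding protein under PBS, from 3894, 3879 and 4727 TPM to 927, 867 and 971 TPM (-2.17 ± 0.20). Igfbp2 alone of the 6 Igfbp genes rose. Of 19 genes of the NRF2 oxidant response 10 rose and 3 fell: Nqo1, a quinone reductase, rose by 1.36, and Fth1 (ferritin heavy chain, -1.35), Gstm1 (-1.30) and Gsta4 (-1.10) fell. Of 22 genes of protein folding in the endoplasmic reticulum 14 fell and 3 rose, and 10 fell after centring, where the median moved from -0.47 to -0.27. Hspa5, the chaperone BiP, went from 1129, 1037 and 1161 TPM to 625, 598 and 539 TPM (-0.92 ± 0.11), and Ero1a, which drives disulfide formation, rose (1.15).

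**Figure D2:**
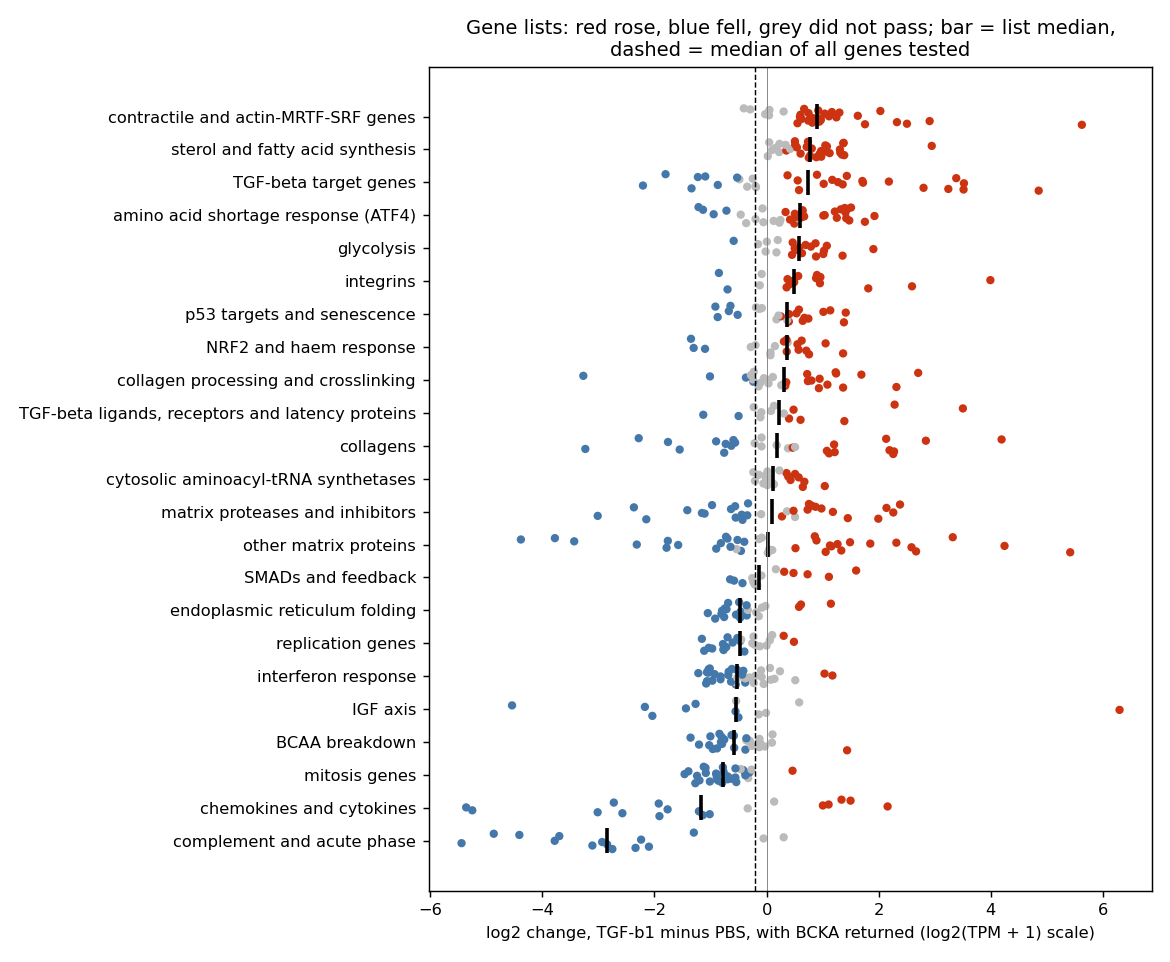
Change with TGF-β1 on the log2(TPM + 1) scale for the tested members of the 23 gene lists, with BCKA returned. Each point is 1 gene, red for rises and blue for falls at an adjusted p under 0.05 and grey for the rest, the bar is the list median and the dashed line the median of all genes tested (-0.20); the medians run from -2.84 for complement and acute phase to 0.90 for contractile genes.

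Markers that separate kinds of lung fibroblast, and markers of pericytes and smooth muscle and of mesothelium, moved as well. Of 10 markers of adventitial fibroblasts 9 fell and 0 rose, and their summed level went from 2373 to 2923 TPM under PBS to 907 to 986 TPM under TGF-β1. Ly6a, which encodes the stem cell antigen Sca-1, went from 278, 255 and 340.0 TPM to 36, 22.8 and 37.8 TPM (-3.16 ± 0.20), and Ly6c1 (-3.98) and Cd34 (-2.51) fell; the Ly6 genes are close copies and their reads are uncertain. Of 8 tested markers of alveolar fibroblasts 6 fell and 1 rose, and the sum of all 10 listed markers went from 1046 to 1143 TPM to 510.5 to 533 TPM, with Inmt (-3.82) and Scara5 (-3.73) lowest. Of 8 tested markers of pericytes and smooth muscle 5 rose and 0 fell, and the sum of all 11 listed markers went from 136 to 145 TPM to 251 to 288 TPM. Cspg4, the NG2 proteoglycan of pericytes, went from 2.12, 1.94 and 1.33 TPM to 19.4, 28.8 and 23.4 TPM (3.15 ± 0.17). Of 8 mesothelial markers 6 fell and 1 rose, from a sum of 105 to 111 TPM to 44.6 to 53.3 TPM, led by Upk3b (-2.13). Pan-fibroblast markers split 5 to 5. Their sum of 36219 to 41804 TPM under TGF-β1 came mostly from collagen genes. The part that these marker shifts have in the other gene groups was not tested.

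Against BCAA-free medium without keto acids, the response to TGF-β1 was tested as a difference of 2 responses that share no library. It differed in 5979 of 13084 genes (45.7%), with a higher response with BCKA in 2387 (18.2%) and a lower one in 3592 (27.5%). After centring, which moved the median difference of all genes by 0.122, the counts were 3050 and 2773. For 957 of these genes both responses passed and had opposite signs: 313 rose with BCKA and fell without, and 644 fell with BCKA and rose without. In another 1344 both passed with the same sign and different size. A further 2637 passed in BCAA-free medium only and 885 with BCKA only. The median difference of all genes tested was -0.11. Without the outlying library, which is 1 of the 12 compared, 7133 genes differed, 5621 of them shared with the first count. Without it the counts with a higher and a lower response were 27 and 1 of 32 contractile genes, 1 and 33 of 38 ATF4 genes, 0 and 19 of 20 synthetase genes, 29 and 0 of 33 sterol and fatty acid genes and 23 and 0 of 30 mitosis genes.

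The contractile genes rose with BCKA and mostly did not without. Of the 32 genes 26 had a higher response with BCKA and 0 a lower one, and the list median was 0.90 with BCKA and -0.61 in BCAA-free medium. Acta2 in BCAA-free medium was at 1054, 1210.3 and 1134 TPM under PBS and 109, 205 and 167 TPM under TGF-β1, so that there the TGF-β1 libraries were the low ones. The difference of the 2 responses was 4.61, with a 95% interval of 4.14 to 5.08 (adjusted p = 6.57e-13). For Cnn1 the response was 2.91 with BCKA and -2.29 without, a difference of 5.20 (4.60 to 5.80). The Acta1 response was 5.62 and 0.50, a difference of 5.12. The promoters printed above belong to genes that all differed here, with Myl9 changing by 0.92 with BCKA and -3.38 without, Actg1 by 0.82 and -0.18, and Fhl2 by 0.75 and -0.33.

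Among genes with a mean of at least 5 TPM in 1 of the 4 groups, the 2 with the highest difference were Itga8 and Cemip, both outside that list. Itga8 was at 71.7, 53.8 and 85.2 TPM under PBS and 1.16, 2.87 and 2.48 TPM under TGF-β1 in BCAA-free medium, against 58.1, 54.9 and 47.3 TPM and 116, 94.9 and 102 TPM with BCKA (difference 5.46, 4.91 to 6.01). Cemip was at 1624, 1357 and 1730.2 TPM and 73.1, 67 and 72 TPM there, against 1584, 1397 and 1218 TPM and 2608, 2530.0 and 2447 TPM (difference 5.31). Both genes thus fell with TGF-β1 in the medium without BCAA and rose with it when BCKA were present. The target gene Cthrc1 had a response of 3.52 with BCKA and -1.24 without (difference 4.76, adjusted p = 1.27e-13), whereas that of Postn was 5.41 and 5.23 (difference 0.18, -0.29 to 0.65) and did not pass. Ccn2 had 3.51 and 3.12 (difference 0.39, adjusted p = 0.0233), a call that was lost with only the compared groups in the fit (adjusted p = 0.0735) and without PBS replicate 1 (0.0738), PBS replicate 3 (0.0573) or TGF-β1 replicate 1 (0.0512) of the BCKA groups or PBS replicate 2 (0.07) of the BCAA-free group. In all, 13 of 30 target genes had a higher response with BCKA and 5 a lower one.

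For the collagens the outlying library decided part of the result. Of 27 genes 11 had a higher response with BCKA and 2 a lower one, and 19 and 2 without that library. Col1a1 under TGF-β1 in BCAA-free medium was listed at 27677, 4495 and 6052 TPM, the first of which is the outlying replicate 1. The difference was 1.24 (0.15 to 2.32, adjusted p = 0.0585) with it and 2.04 (adjusted p = 1.46e-09) without it. The difference for Eln was 0.36 and for Col3a1 0.08 with the library, neither passing, and 1.17 and 0.71 without it, both passing. Of 37 other matrix genes 24 had a higher response and 2 a lower one, and of 29 collagen processing genes 22 and 3.

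The ATF4 programme went the other way. Of its 38 genes 34 had a lower response with BCKA than without and 1 a higher one, and the list median was 0.60 with BCKA and 2.24 without. Trib3 in BCAA-free medium went from 4.46, 6.47 and 4.44 TPM to 338, 181 and 202 TPM, and the difference was -3.51 (-4.17 to -2.85, adjusted p = 1.15e-08). Ddit3 went from 16.8, 18.1 and 13.7 TPM to 110.0, 240.4 and 209 TPM there, while its groups overlapped with BCKA (difference -3.44). Asns differed by -1.07, Atf4 by -1.55 and Bcat1 by -1.36, each lower with BCKA. Of the 20 synthetase genes 19 had a lower response with BCKA, with a list median of 0.11 against 1.84. At the same minimum level, the largest differences below 0 were in Tenm4, a teneurin (-6.11), the adrenergic receptor gene Adra2a (-5.61), Avil, an actin-severing protein of the villin family (-5.49), and the mitochondrial gene Chchd10 (-4.83). With BCKA returned these 4 genes stayed under 6 TPM in all 6 libraries, and under TGF-β1 in BCAA-free medium they lay between 56.7 and 172 TPM.

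Sterol and fatty acid synthesis had a higher response with BCKA in 29 of 33 genes and a lower one in 0, and its median was 0.77 with BCKA and -1.04 without. Scd2 in BCAA-free medium went from 652, 539 and 746 TPM to 221, 217 and 248 TPM (difference 2.86, 2.56 to 3.15). Mitosis genes fell less with BCKA: 23 of 30 had a higher response and 0 a lower one (median -0.79 against -1.66). Of 15 complement and acute phase genes 13 had a higher response, as in Hp (-4.87 with BCKA, -7.84 without), and of 36 interferon genes 16 did. Igfbp3, a binding protein and p53 target, had responses of opposite sign, -1.44 with BCKA and 2.90 without (difference -4.34). In the glycolysis list 1 gene had a higher response and 4 a lower one, 3 and 1 after centring, and 5 and 4 without the outlying library, so the counts of that list depend on the processing. The 1 was Aldoc, with 1.90 and -1.93.

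**Figure D3:**
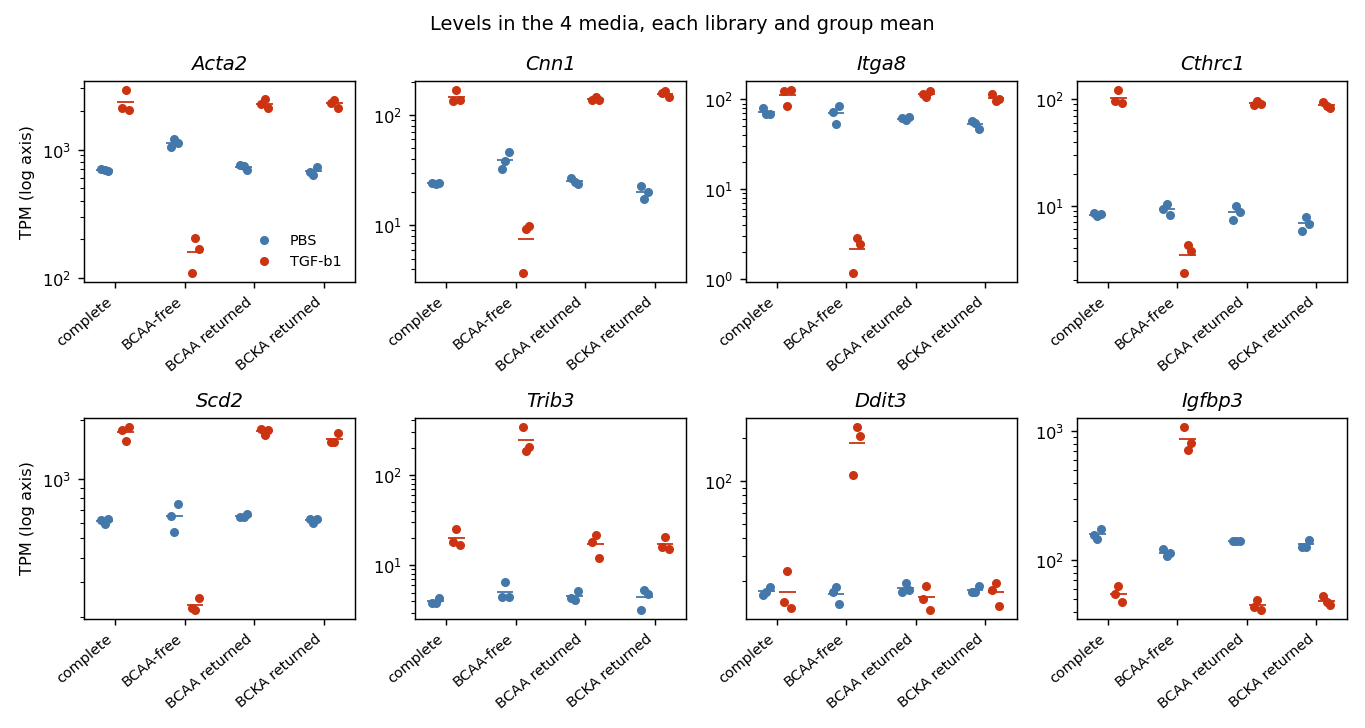
TPM (log axis) of 8 genes in the 4 media; points are libraries (blue PBS, red TGF-β1) and short lines are means of 3. In BCAA-free medium the red points lie below the blue for Acta2, Cnn1, Itga8, Cthrc1 and Scd2 and above them for Igfbp3, whereas with BCKA returned they lie on the same side as in complete medium; Ddit3 overlaps between PBS and TGF-β1 in the media other than BCAA-free.

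**Figure D4:**
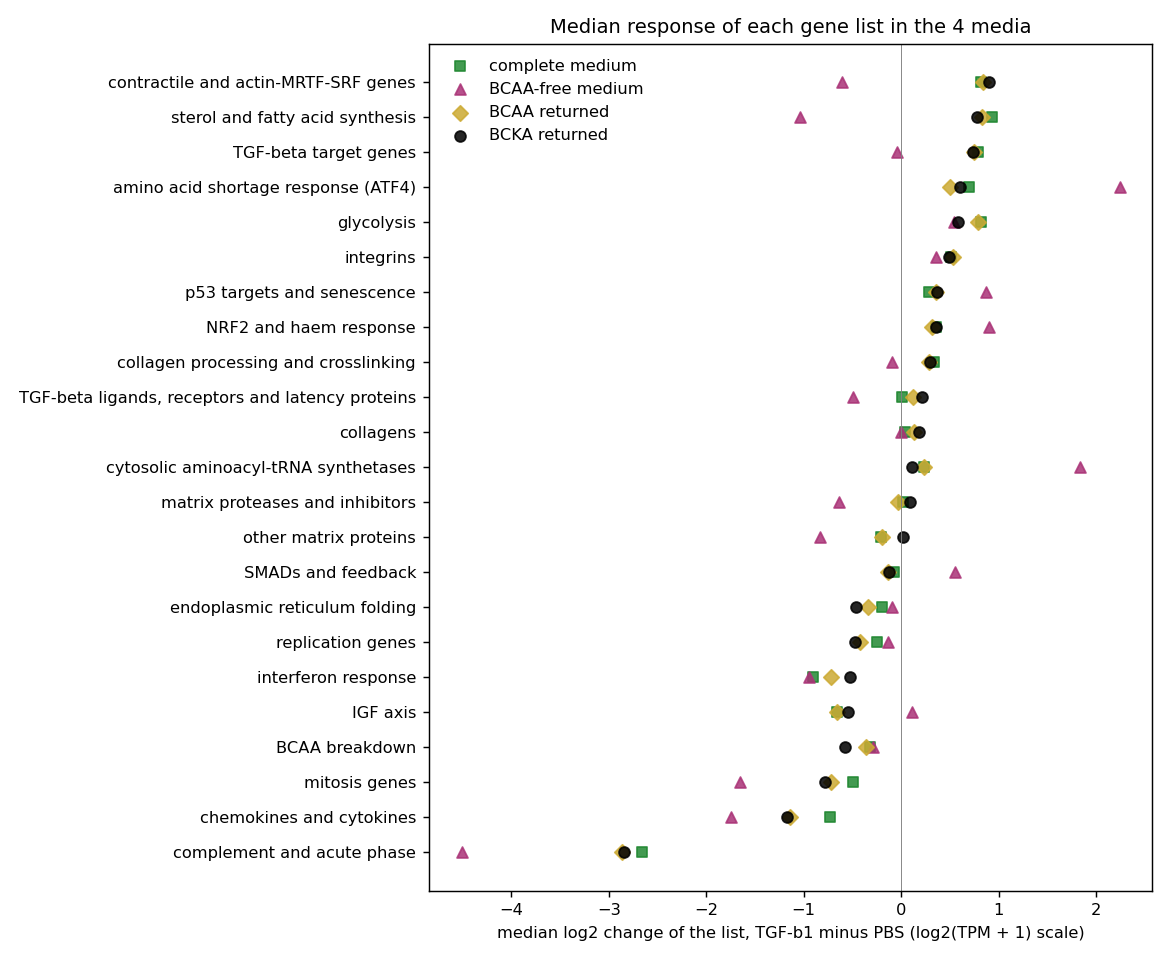
Median change with TGF-β1 of the 23 gene lists in each medium, on the log2(TPM + 1) scale. The BCAA-free triangles stand apart for contractile genes (-0.61 against 0.90 with BCKA), sterol and fatty acid synthesis (-1.04 against 0.77) and the ATF4 programme (2.24 against 0.60).

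Against complete medium the response differed in 27 of 13084 genes (0.206%), with 9 higher (0.0688%) and 18 lower (0.138%) with BCKA; 837 genes had an unadjusted p under 0.05. Of 10962 genes with a mean of at least 5 TPM in 1 of the 4 groups, 92.1% had a 95% interval of the difference within 1 log2 of 0 in either direction. For Acta2 that interval was -0.45 to 0.49, for Cthrc1 -0.41 to 0.47, for Trib3 -0.95 to 0.38 and for Col1a1 -1.16 to 1.01. Of the 32 contractile, 33 sterol and fatty acid and 27 collagen genes 0 differed. With 0.206% of all genes differing, that count does not set these lists apart from other genes. Set side by side, the list medians with BCKA, in complete medium and with BCAA returned were 0.90, 0.82 and 0.84 for contractile genes, 0.77, 0.94 and 0.83 for sterol and fatty acid synthesis, 0.60, 0.69 and 0.50 for the ATF4 programme and -0.58, -0.32 and -0.36 for BCAA breakdown.

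Among genes with a mean of at least 5 TPM in 1 of those 4 groups, the 4 lowest differences that passed were in Fgf23, Tnfsf11, Gbx2 and Alpl; Ccno, with group means under that level, had -1.32. Fgf23, a phosphate-regulating hormone, was at 31.9, 41.5 and 31 TPM under PBS with BCKA and 10.1, 8.83 and 10 TPM under TGF-β1, while in complete medium it was at 7.29, 9 and 6.9 TPM and 9.77, 7.73 and 9.7 TPM. The difference of the responses was -1.94 (-2.44 to -1.45, adjusted p = 0.000585), and the PBS libraries with BCKA are the ones that stand apart. Tnfsf11, the osteoclast factor RANKL, was at 38.4, 35.3 and 43.5 TPM and 18.5, 10.2 and 14.7 TPM with BCKA and at 16.2, 16.9 and 18.6 TPM and 17.6, 19.2 and 18.2 TPM in complete medium (difference -1.49, adjusted p = 0.00358). Alpl, tissue-nonspecific alkaline phosphatase, had 28.1, 28.8 and 28 TPM and 30.3, 23.1 and 25.2 TPM with BCKA, overlapping groups, against 17, 18.5 and 18.3 TPM and 39.5, 35.3 and 39.2 TPM (difference -1.16, adjusted p = 0.001). The homeobox gene Gbx2 rose in both, by 1.20 with BCKA and 2.42 in complete medium (difference -1.22).

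Higher responses included those of Clec3b (tetranectin, difference 1.70), Dpt (dermatopontin, 1.11) and Eepd1 (0.93). Dpt fell in both media, from 9.3, 11.9 and 9.66 TPM to 1.58, 1.1 and 0.948 TPM with BCKA and from 30.5, 29.5 and 32.1 TPM to 1.79, 1.98 and 1.84 TPM in complete medium, so the media differed mainly in the PBS level. Clec3b was at 3.04, 2.78 and 3.47 TPM under PBS and listed at 0, 0 and 0.0499 TPM under TGF-β1 with BCKA, against 13.8, 13.2 and 13.4 TPM and 0.145, 0 and 0.18 TPM in complete medium. At these levels under TGF-β1 the size of the Clec3b difference depends on the added 1. With 0.1 added, neither Clec3b (adjusted p = 0.683 in limma) nor Dpt (0.402) differed from complete medium at the threshold. In 24 of the 27 genes the distance between the media was larger under PBS than under TGF-β1, and in 3 it was larger under TGF-β1. Named after their values were seen, the 27 also held Socs3 (difference -0.85), the feedback inhibitor of cytokine signalling, the glycolytic gene Pgk1 (-0.64), the protease gene Mmp3 (-0.76) and Bhlhe40 (-0.73), each with a lower response.

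The count of 27 depended on the fit. It was 84 without the outlying library, which is in none of the 4 groups, and 14 without complete-medium PBS replicate 1, 16 without PBS replicate 3 or TGF-β1 replicate 2 of that medium, and 17 without its TGF-β1 replicate 1 or without PBS replicate 1 with BCKA. The Eepd1 call was lost in 10 of the 12 fits that left out 1 compared library. It was also lost with 0.1 (adjusted p = 0.249 in limma) or 0.5 (0.0693) added to TPM and after centring (0.0523).

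**Figure D5:**
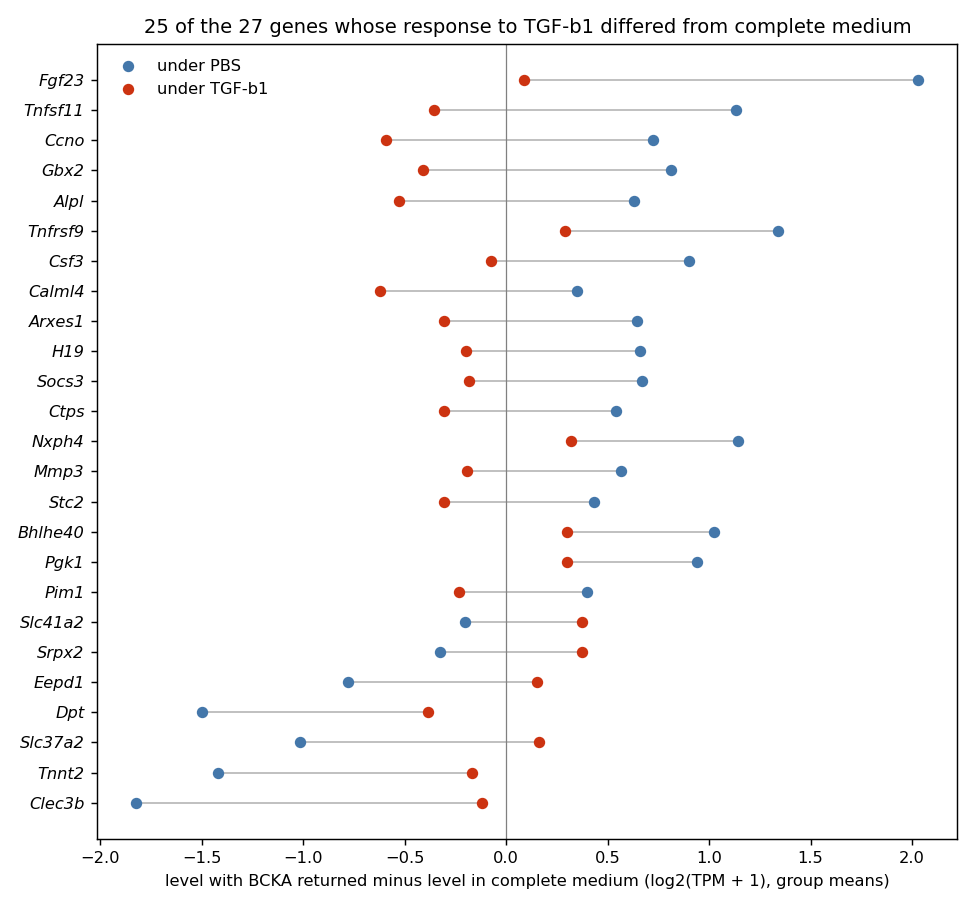
Of the 27 genes whose response with BCKA returned differed from that in complete medium, 25 are drawn, each as the difference between the 2 media in mean log2(TPM + 1) under PBS (blue) and under TGF-β1 (red). The length of each line is the size of the difference of responses; Fgf23 lay 2.03 above complete medium under PBS and 0.09 under TGF-β1.

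With BCAA themselves returned, 3 of 13084 responses differed from those with BCKA (0.0229%), all higher with BCKA. They included Dpt (1.39, adjusted p = 0.00124) and Clec3b (1.25, adjusted p = 0.0367). None was lower, and 398 genes had an unadjusted p under 0.05. With BCAA returned Dpt was at 23.3, 22 and 25.8 TPM under PBS and 0.909, 0.664 and 0.973 TPM under TGF-β1, and its PBS level with BCKA was the lower one. Of 10954 genes with a mean of at least 5 TPM in 1 of the 4 groups, 95.9% had a 95% interval within 1 log2 of 0. The interval was -0.35 to 0.59 for Acta2, -0.78 to 0.12 for Asns, -0.66 to 0.10 for Bcat1 and -0.33 to 0.33 for Bckdha. The Clec3b call was lost in each fit without 1 compared library other than BCAA PBS replicate 2, and leaving out any of 9 of the 12 compared libraries (BCAA PBS replicate 3, BCAA TGF-β1 replicates 1 and 3 and each library with BCKA) left Dpt as the 1 gene that passed; without the outlying library 13 genes passed. With 0.1 added to TPM neither Dpt (adjusted p = 0.104 in limma) nor Clec3b (1) passed, and with 0.5 added Clec3b did not (0.204). The 3 differences of responses share the libraries with BCKA and are not independent of each other.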

How the data were processed

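The authors deposited 1 table of TPM values for 24 fibroblast libraries made from poly(A) RNA with oligo(dT). Per the submitters' processing notes, the build is mm39 and the tools named, without their roles, are HISAT2, Subread, featureCounts, DESeq2, Trim Galore and FastQC; versions and strand setting are not given in the sources used here. Counts were not used here, so depth is unknown and no count model was run. Every library column matched a sample by its name, and 0 columns of per-sample values were left unmapped.

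Of 26264 genes listed, the 13084 with at least 1 TPM in at least 3 of the 24 libraries were tested on log2(TPM + 1) with limma 3.58.1 in R 4.3.3 (moderated test with a mean-variance trend, 8 group means, no covariates), two-sided, with Benjamini-Hochberg adjustment over all genes tested and a threshold of 0.05. The contrasts were TGF-β1 against PBS with BCKA returned and its difference from the same contrast in each of the other 3 media. The fit was tested on simulated data. The members and gene lists were chosen with earlier results of these data known. The text names the 10 largest rises and falls with non-overlapping groups and a mean of at least 5 TPM in 1 group, up to 3 passing genes per list with the largest change, up to 4 genes at each end of each difference, and 19 genes of interest; some genes that this rule picks are not reported here, and all other genes named were chosen after their values were seen. Alternatives were added values of 0.1 and 0.5, no filter on low values, median centring, array weights, only the compared groups, a replicate block and leaving out each library. Leaving out the outlying library where it is not compared was added after seeing the data. Near-identical genes (the actins, Scd1 and Scd2, Ifit3 and Ifit3b, and the Ly6, Ces1 and Irgm genes) may share reads.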

Additional observations from a re-analysis of the deposited data

Results flagged for a closer look

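Each result here is a difference between the TGF-β1 response with BCKA returned and that in another medium, in log2 units, that passed an adjusted p of 0.05 in limma. The genes named have a mean of at least 5 TPM in 1 of the 4 groups compared. Against complete medium 27 genes passed, with the lowest such responses with BCKA in Fgf23 (-1.94), Tnfsf11 (-1.49), Gbx2 (-1.22) and Alpl (-1.16) and higher responses in Clec3b (1.70), Dpt (1.11) and Eepd1 (0.93). The Eepd1 call was lost with 0.1 (adjusted p = 0.249 in limma) or 0.5 (0.0693) added to TPM. It was also lost after centring (0.0523), with only the compared groups in the fit (0.0539) and in most fits without 1 compared library. Against BCAA-free medium 5979 genes passed, with the lowest in Tenm4 (-6.11), Adra2a (-5.61), Avil (-5.49) and Chchd10 (-4.83) and the highest in Itga8 (5.46), Cemip (5.31), Cnn1 (5.20) and Acta1 (5.12). Against medium with BCAA returned 3 genes passed, Dpt (1.39) and Clec3b (1.25) among them. Dpt and Clec3b passed against both complete medium and BCAA returned, and the 2 tests share the libraries with BCKA. With 0.1 in place of 1 added to TPM they passed against neither, with an adjusted p of 0.402 and 0.104 for Dpt and 0.683 and 1 for Clec3b in limma, and with 0.5 added Clec3b did not pass against BCAA returned (0.204).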

How the results depend on the processing

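The TGF-β1 response with BCKA returned gave 5138 to 7428 calls when 1 library was left out (1287 to 1897 higher and 3840 to 5531 lower). Its difference from complete medium then gave 14 to 84 calls (4 to 32 higher, 9 to 52 lower), that from BCAA-free medium 5445 to 7133 (2164 to 2825 higher, 3280 to 4683 lower) and that from BCAA returned 1 to 13 (1 to 7 higher, 0 to 6 lower). Median centring gave 2578 higher and 2624 lower for the response, 14 higher for the difference from complete medium and 5 calls, all 5 higher, for that from BCAA returned. It moved the median difference from BCAA-free medium by 0.122 and gave 3050 higher and 2773 lower. With 0.1 in place of 1 added to TPM, 15 genes (1 higher) differed from complete medium and 1 (1 higher) from BCAA returned; with no filter on low values 5 differed from BCAA returned, 1 of them lower. Array weights, whose fit did not reach its tolerance, gave 8844 calls for the response (2361 higher), 637 (321 higher, 316 lower), 9681 (6113 lower) and 220 (114 higher, 106 lower) for the differences from complete medium, BCAA-free medium and BCAA returned. With only the compared groups in the fit, 45 genes (16 higher, 29 lower) differed from complete medium and 24 (10 higher, 14 lower) from BCAA returned.

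Among single genes, some near 0 changed sign. The response of Alpl was 0.0814 after centring, that of Bckdk 0.164 after centring and 0.0297 with array weights, that of Ddit3 0.14 after centring and that of Fn1 -0.0685 with array weights. Leaving out 1 library gave -0.0938 to 0.0465 for Bckdk, -0.166 to 0.0843 for Ddit3 and -0.135 to 0.122 for Fn1. The difference from BCAA-free medium was -0.118 with array weights for Postn, and without 1 library it ranged from -0.127 to 0.362 for Postn, from -0.341 to 0.708 for Col3a1 and from -0.0549 to 1.17 for Eln. In these ranges the fit without the outlying library gave the lowest value for Postn and the highest for Col3a1 and Eln. The cause was not tested.

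The groups share replicate numbers. Between PBS and TGF-β1 with BCKA returned, same-numbered libraries did not deviate together (correlations of deviations 0.0366, 0.0919 and -0.062). The libraries were therefore treated as unpaired. The check covered only these groups and took all genes together, so it cannot show that the cultures were unpaired. With a replicate block the calls numbered 6014 for the response and 27, 6007 and 3 for the differences from complete medium, BCAA-free medium and BCAA returned. All values come from 3 libraries a group and from TPM alone, so counting error at low levels could not be separated from other spread.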

Other observations

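For further lists, genes were counted whose TGF-β1 response with BCKA returned differed from that in BCAA-free medium. The counts are to be read against all genes tested, of which 18.2% had a higher response and 27.5% a lower one. Of 14 genes for SMADs and feedback proteins 1 had a higher response and 9 a lower one, as in Smad7 (1.11 with BCKA, 1.96 without). After centring, 1 was higher and 6 were lower. Of 18 chemokine and cytokine genes 11 had a higher response and 0 a lower one, and of 17 integrin genes 9 and 2, as in Itga1 (-0.70 with BCKA, -3.17 without). After centring the chemokine and cytokine genes had 11 and 0, and the integrin genes 11 and 2. The oxidant response list had 2 higher and 9 lower of 19, and 4 higher and 7 lower after centring. In it, Hmox1, the haem-degrading enzyme haem oxygenase 1, was at 0.76 with BCKA and 2.99 without (difference -2.24, adjusted p = 1.9e-08 in limma).

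BCAA breakdown genes were divided, with 7 higher and 8 lower of 27, and 6 higher and 11 lower without the outlying library. After centring 9 were higher and 7 lower. The share with a lower response was close to the 27.5% of all genes tested. Ppm1k, the phosphatase that activates BCKA dehydrogenase, had -0.26 with BCKA, which did not pass, and -0.84 without (difference 0.58, adjusted p = 0.0093 in limma), whereas Bckdha had -0.96 with BCKA and -0.40 without (difference -0.56, adjusted p = 0.00616 in limma). The Ppm1k difference did not pass with only the compared groups in the fit (adjusted p = 0.0539 in limma). Cdkn1a changed by 1.38 with BCKA and 1.47 without, and Cspg4 by 3.15 and 3.46, and neither difference passed.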
